A study of Mus musculus with 2 samples.

Results

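The genes described here are the ephrins and their Eph receptors, the Slits and their Robo receptors, and the netrins with their receptors of the DCC and UNC5 families. Members were taken by name: of 36 listed genes, 35 had at least 1 probe set that the platform annotation gives to that gene alone, out of 18193 named genes on the array. Ephb2 is not analysed here. The 35 genes were read by 75 probe sets, and 29 of them reached the signal floor explained below on at least 1 array.

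The tissue was brain cortex of newborn mice. The control pool had the genotype MRTFA-/-;MRTF-BFlox/Flox, and the double knockout pool MRTF-A-/-;MRTF-BF/F;GFAP-Cre. Both pools thus lack MRTF-A by their labels and carry floxed MRTF-B alleles, and the pools differ by Cre, the recombinase that deletes floxed segments, driven, as the name GFAP-Cre says, by a GFAP promoter. Deletion is thereby limited to cells in which that promoter is or was active and to the cells that descend from them. RNA from 3 animals was pooled for each group and hybridised to 1 Affymetrix array. Both pools are labelled postnatal day 0, but the description of the double knockout sample gives postnatal day 1.

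Guidance cues steer growing axons and migrating neurons by attraction or repulsion at the growth cone, where receptors act on the actin cytoskeleton. Ephrins are bound to the cell surface, so their Eph receptor tyrosine kinases read them by contact, and signals can run into both cells. Slits are secreted repellents read by Robo receptors, and netrins attract through DCC or repel through UNC5 receptors. In the cortex these systems act on thalamic, callosal and corticofugal axons and on migrating neurons. MRTF-A and MRTF-B are actin-sensing coactivators of the transcription factor SRF, which binds a short DNA element called the CArG box.

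Promoter windows were searched for the CArG box because it is the element that SRF binds. RefSeq windows on GRCm38.p6, running from 250 bases before to 50 bases after a transcript start, were given for 31 of the 36 listed genes (36 windows). The box is its own reverse pattern, so each match counts for both strands. Of the 36 windows 1 held a match (2.78%), that of Robo1, against 535 of 32851 windows of all genes (1.63%). The 120 bases before the start are shown for Robo1, with the CArG box in capitals, and for Epha5 and Efnb1, the members with the highest and the lowest difference among those read above the floor on both arrays. The last pair of windows holds no CArG match and so shows no capitals.
Robo1 (chr16:72663029-72663148, plus strand): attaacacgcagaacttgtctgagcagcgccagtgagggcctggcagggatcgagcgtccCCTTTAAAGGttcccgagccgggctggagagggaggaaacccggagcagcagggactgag
Epha5 (chr5:84417383-84417502, minus strand): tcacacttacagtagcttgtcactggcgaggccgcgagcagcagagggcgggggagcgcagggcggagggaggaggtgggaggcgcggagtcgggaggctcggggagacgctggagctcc
Efnb1 (chrX:99135941-99136060, plus strand): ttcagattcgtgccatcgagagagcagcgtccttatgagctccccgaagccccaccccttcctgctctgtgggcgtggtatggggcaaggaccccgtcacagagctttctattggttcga
The Robo1 match starts 60 bases before a transcript start. A match describes letters and is not a measured SRF site, and the absence of a match says only that these letters are not in this window. The member whose window holds the box had nearly equal signals in the pools: the brightest Robo1 probe set read 1999.6 in the control pool and 2009.6 in the double knockout pool.

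Signals are MAS5 values, which summarise the probes of a probe set as an intensity on a linear scale. They are printed as deposited. Differences are log2 of double knockout over control after centring, with signals under a floor of 178.6 raised to it. The brightest probe set stands for its gene, and a fold is a lower bound if the signal of 1 pool fell short of the floor. The groups have 1 array each, which leaves no replicate and allows no test. An SD beside a gene is the spread between those of its probe sets that reached the floor in both pools, and says nothing of variation between animals. Its pooled value was 0.18 log2 over the 4858 genes with 2 or more such probe sets and 0.19 over the 13 guidance genes among them.

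As a set the guidance genes lay around 0. Of the 29 measured members 15 were higher and 14 lower in the double knockout pool, with a median difference of 0.0035 log2, beside 0.011 over all 11636 measured genes. Past 1.2-fold there were 3 higher members (Robo2, Epha5 and Efna2), where 5.61% of all measured genes were that much higher, and 2 lower ones (Efnb1 and Unc5b), where 8.37% were that much lower. Together these 5 members are 17.2% of those measured, against 14.0% of all genes, a share near the background. No member passed 1.5-fold on its brightest probe set, as 1.14% of all measured genes did, and none passed 2-fold, as 0.0773% did. The SD of the differences among the 26 members read on both arrays was 0.18, and 0.19 over all genes read on both arrays. Split by role, the medians were 0.040 over 11 ligands and -0.014 over 18 receptors. This contrast rests on the brightest probe sets. Over the means of each gene's probe sets above the floor on both arrays, the medians were -0.030 for ligands and -0.034 for 15 receptors.

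**Figure D1:**
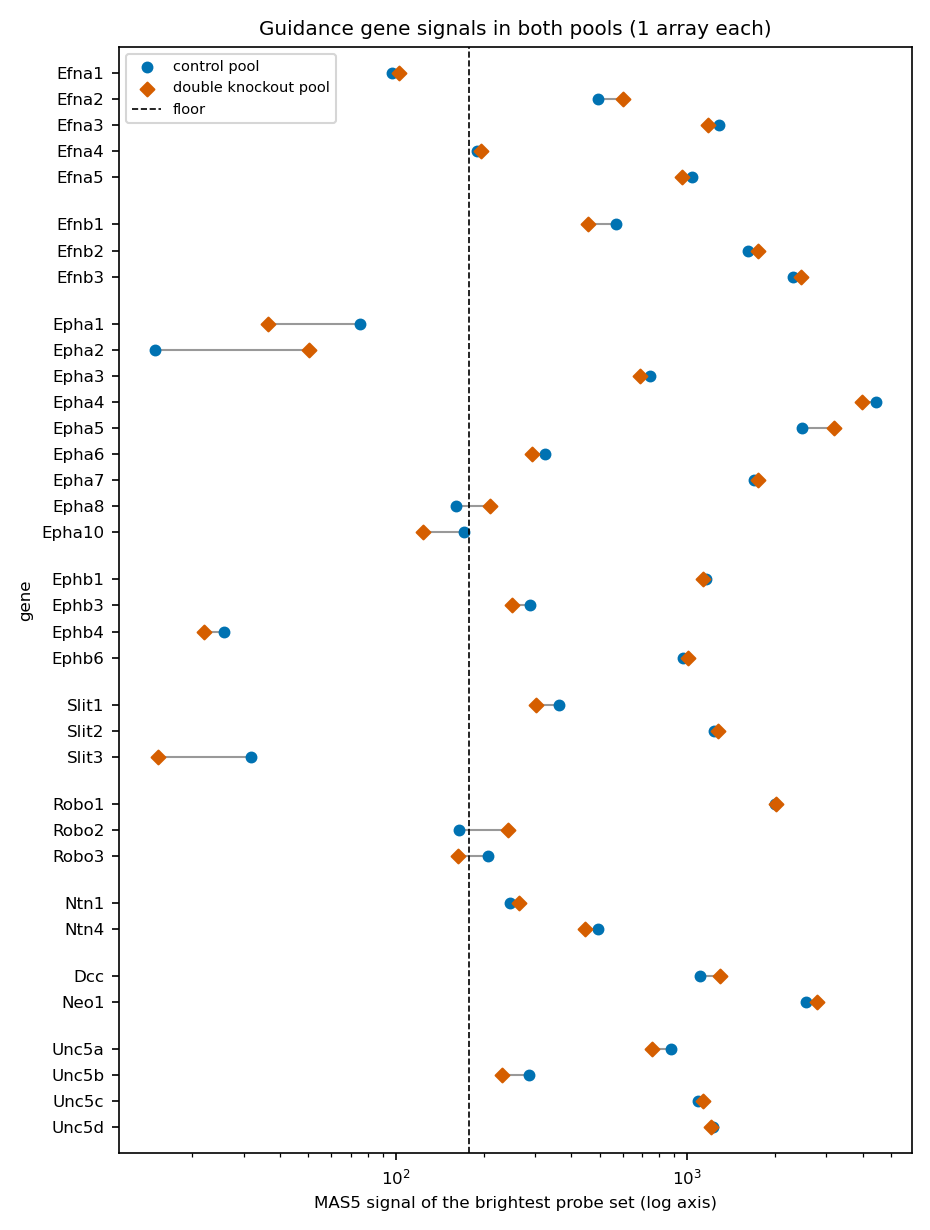
MAS5 signal (log axis) of the brightest probe set of each of the 35 guidance genes in the control pool (circles) and the double knockout pool (diamonds), 1 array each, with the floor of 178.6 dashed. Most pairs nearly coincide, and the widest gaps lie left of the floor, where 6 genes had no measured value.

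The targeted genes and the tissue markers give the setting for these values. Mrtfb read 3358.9 and 2481.8 and Mrtfa 601.6 and 262.4 in the control and double knockout pools, and Srf 582.3 and 471.1. The labels give both pools the same MRTF-A genotype, and the Mrtfa signal was nevertheless 2.30-fold lower in the double knockout pool, on its only probe set. The pools are named here by their labels. The sources used here do not say whether these probe sets lie in the deleted parts. All 10 cortical projection neuron markers with a probe set were above the floor on both arrays, Neurod6 at 4571.7 and 4738.1 and Tbr1 at 1553.3 and 1720.3. Of these, 8 were higher and 2 lower on the brightest probe set (median 0.11, summed signal 19467 to 19361.7). Slc17a7 at -0.55 and Rorb at 0.34 differed most. Over the means of each gene's probe sets the median was only 0.011, and Cux1 averaged -0.12 with 2 of 8 probe sets higher. Markers of other cells also differed between the pools. All 9 measured striatal markers were lower (median -0.31, summed signal 12439 to 10553.9), as were 9 of 11 oligodendrocyte markers (median -0.32, 25305.7 to 21379.7). Among the oligodendrocyte markers Mobp (-0.97) and Mag (-0.71) differed most, while Olig1 (0.04), Olig2 (-0.05) and Pdgfra (0.15) differed less. All 11 measured meningeal fibroblast markers were higher (median 0.23, 7954.3 to 10256.7), and 7 of 12 microglia and macrophage markers (median 0.16, 7899.1 to 8624). The microglia and macrophage list was split, with Mrc1 (0.68) and C1qc (0.46) higher and P2ry12 (-0.37) lower. Of 11 endothelial markers 7 were lower (median -0.11, 5913.6 to 5811.6). Of 12 radial glia and progenitor markers 6 were lower (median -0.05), and of 5 thalamic markers 2 (median 0.07, but -0.06 over probe-set means). The thalamic marker that differed most was Tcf7l2, from 336.2 to 222.1 (-0.60), and only it was past 1.2-fold. No measured marker was at 0 in either pool, but a marker counts as measured only if it reaches the floor on at least 1 array. The part of these cells in the guidance gene differences was not tested, and in bulk RNA fewer cells of a type and less RNA per cell cannot be told apart.

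Among the ephrin-A ligands, which are held to the membrane by a lipid anchor, the median was -0.04 over 4 measured genes. Efna2 was past 1.2-fold on its brightest probe set, which read 492.3 in the control pool and 600.3 in the double knockout pool (0.28). Its other probe set went the opposite way, from 276.7 to 228.9, so that the mean was 0.0025 ± 0.40 (SD, 2 probe sets) and the gene has no settled direction. Efna3 was lower on both of its probe sets, 1287.9 to 1175.1 and 582.7 to 548.1, with a mean of -0.11 ± 0.03 (SD, 2 probe sets). That is under 1.2-fold. Its probe sets lay close together, but they read the same 2 arrays and are not replicates. Efna5, which patterns axon maps as a repellent, read 1037.2 and 955.8 (-0.12). Efna4 stood just above the floor at 189.9 and 195.7 (0.04), and both probe sets of Efna1 stayed under it. Efna1, Efna3 and Efna4 follow each other on chromosome 3 in RefSeq's gene order with 0 protein-coding genes between them, and the 2 measured ones differed in sign.

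The ephrin-B ligands span the membrane and signal through their own cytoplasmic tails. Efnb1 was the lowest member, at 567.0 in the control pool and 457.8 in the double knockout pool on its brightest probe set (-0.31, 1.24-fold lower). Its other probe sets read 394.0 to 363.8 and 209.4 to 211.2, and the mean was -0.14 ± 0.16 (SD, 3 probe sets). The Efnb1 difference thus rests mostly on 1 probe set. Efnb2, a ligand of arterial endothelium as well as of neurons, was higher on all 3 of its probe sets above the floor on both arrays, 1620.3 to 1753.6, 1202.2 to 1359.3 and 292.8 to 372.5. Its mean was 0.21 ± 0.12 (SD, 3 probe sets), while a further probe set near the floor went from 190.4 to 176.0. The mean of the 3 is larger than the spread between them, but the difference of the brightest, 0.11, is not, and the mean over all 4 measured probe sets was 0.13. Endothelial markers had a median of -0.11 in the same pools, 4 higher and 7 lower, and Tek differed most (0.31). The part of endothelial cells in the Efnb2 difference was not tested. Efnb3, a midline repellent of corticospinal axons, read 2298.7 and 2464.5 on its only probe set (0.10).

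Of the EphA receptors 6 of 9 were measured, 3 higher and 3 lower, with a median of -0.04. Epha5, a receptor for ephrin-A ligands, was higher on all 4 of its probe sets. They read 2473.8 to 3180.8, 2187.1 to 2273.0, 1765.1 to 1848.5 and 261.8 to 283.5, of which only the first is past 1.2-fold (1.28-fold, 0.36). The mean of the 4 was 0.15 ± 0.14 (SD, 4 probe sets), so the direction was shared and the size was not.

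Epha4, which binds ephrins of both classes, was lower on all 4 of its probe sets above the floor. The name of the dimmest of them (418.2 to 372.7) ends in _s_at, which marks possible cross-hybridisation. The brightest read 4440.2 in the control pool and 3967.2 in the double knockout pool, and the mean was -0.16 ± 0.07 (SD, 4 probe sets). It stayed under 1.2-fold on each of them. The mean exceeds the spread between them, but they read the same 2 arrays and are not replicates. Epha3 was also lower on both of its probe sets above the floor, but unequally. The brightest read 744.1 and 688.1 (-0.12), and the other 635.3 and 406.9 (1.57-fold lower, -0.65). That second Epha3 probe set was the only member probe set with a measured difference past 1.5-fold, a size reached downward by 0.885% of the 18877 probe sets that name 1 gene and were above the floor on both arrays. Its remaining 2 probe sets lay under the floor, at 106.5 and 65.8 and at 100.6 and 38.7, and have no measured difference.

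Epha7 went both ways, with 1694.2 to 1743.4 on the brightest of 4 probe sets, 713.5 to 585.6 on the one that differed most and a mean of -0.03 ± 0.19 (SD, 4 probe sets). Epha6 read 324.9 and 293.9 on its only probe set (-0.15). Epha8 was under the floor in the control pool, at 160.3, and above it in the double knockout pool, at 209.8, at least 1.17-fold higher. Epha1, Epha2 and Epha10 were under the floor in both pools on every probe set.

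The EphB receptors, which mostly bind the ephrin-B ligands, had no member past 1.2-fold. Ephb1 read 1163.2 and 1134.9 (-0.04), Ephb3 287.4 and 249.9 (-0.21), and Ephb6, a receptor without kinase activity, 966.2 and 1006.5 (0.06). Ephb4, the venous endothelial partner of Efnb2, stayed under the floor at 25.7 and 21.9. Each of these 4 receptors rested on 1 probe set.

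**Figure D2:**
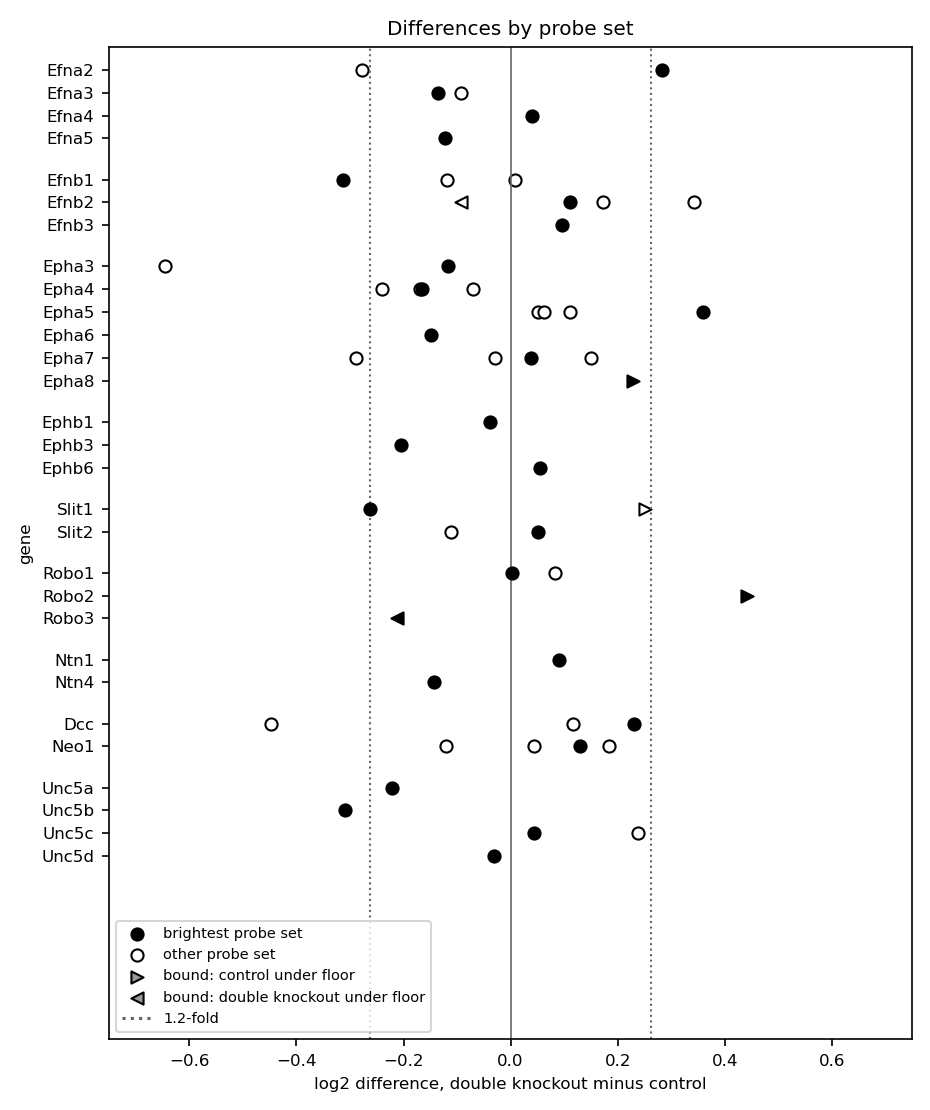
Log2 difference (double knockout minus control) of every probe set of the 29 measured guidance genes that reached the floor on at least 1 array. Filled symbols are each gene's brightest probe set, open symbols its others, triangles are lower bounds, and dotted lines mark 1.2-fold. Epha4, Epha5 and Efna3 keep to 1 side of 0, while Efna2, Epha7 and Dcc spread across it.

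Of the 13 guidance genes with at least 2 probe sets above the floor on both arrays, 6 had probe sets in both directions (Dcc, Efna2, Efnb1, Epha7, Neo1 and Slit2). That is 46.2%, where 56.9% of the 4858 such genes on the array did so. All such probe sets were higher for Efnb2, Epha5, Robo1 and Unc5c, and lower for Efna3, Epha3 and Epha4. Over all 50 member probe sets above the floor on both arrays, 25 were higher and 25 lower.

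In the Slit-Robo system the secreted ligand Slit1 read 361.2 in the control pool and 301.8 in the double knockout pool on its brightest probe set (-0.26), just short of 1.2-fold. A dimmer Slit1 probe set went from 166.9, under the floor, to 213.2, the opposite direction, and the mean of the 2 was -0.0057. Slit2 read 1230.5 and 1278.0 where it was brightest, and averaged -0.03 ± 0.11 (SD, 2 probe sets). Slit3 stayed under the floor. No Slit thus had a direction shared by its measured probe sets.

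Among the receptors, Robo2 had the highest difference of any measured member. Its only probe set read 165.0 in the control pool, under the floor, and 243.2 in the double knockout pool, at least 1.36-fold higher. Robo1 lay near 0 on both probe sets above the floor, with a mean of 0.04 ± 0.06 (SD, 2 probe sets). Robo3, the divergent Robo of commissural axons, went the other way from Robo2, at 207.0 in the control pool and 162.7, under the floor, in the double knockout pool, at least 1.16-fold lower. The signals of Robo2 and Robo3 lay near the floor in both pools. Robo1 and Robo2 are neighbours on chromosome 16, with 0 protein-coding genes between them.

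**Figure D3:**
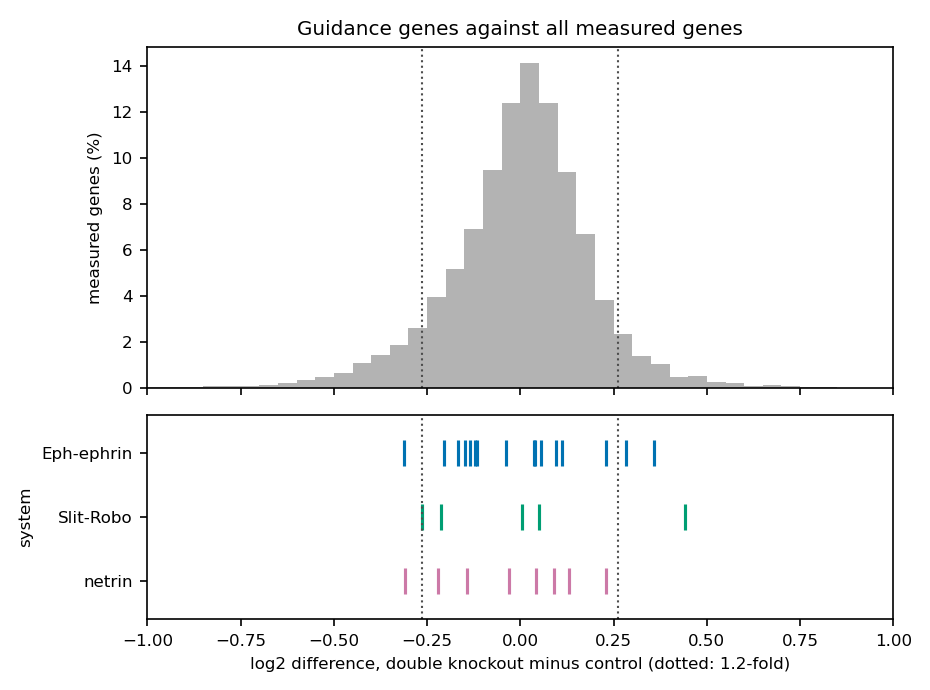
Distribution of the log2 difference (double knockout minus control) over the 11636 measured genes, as percent per bin of the histogram, above the differences of the measured guidance genes of each system (1 tick per gene). The axis is cut at 1 in both directions, and dotted lines mark 1.2-fold, which 5 of 29 guidance genes passed.

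All 8 netrin system genes were measured, 4 higher and 4 lower, with a median of 0.0062. The secreted cue Ntn1 read 247.0 and 263.7 (0.09), and Ntn4, a netrin of basement membranes, 491.8 and 446.5 (-0.14). Each had a further probe set under the floor in both pools. Neither netrin passed 1.2-fold.

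The attractant receptors Dcc and Neo1 were both higher on their brightest probe sets, but not on all of them. Dcc read 1103.2 to 1297.3 (0.23), 519.1 to 563.9 (0.12) and 256.8 to 188.9 (-0.45), averaging -0.03 ± 0.36 (SD, 3 probe sets). The Dcc probe set that opposes the others is the dimmest of the 3. Neo1, which also reads repulsive guidance molecules, was higher on 3 of 4 probe sets, the brightest from 2545.3 to 2793.2, averaging 0.06 ± 0.13 (SD, 4 probe sets). The names of 2 of those probe sets, the brightest included, end in _s_at or _x_at, which mark possible cross-hybridisation.

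Of the repellent UNC5 receptors 3 were lower and 1 higher on the brightest probe set, with a median of -0.13. Unc5b, also a receptor of endothelial tip cells, read 286.3 and 231.5 (1.24-fold lower, -0.31), on the only one of its probe sets above the floor. Unc5a read 876.3 and 753.9 on its only probe set (-0.22). Unc5c was higher on both of its probe sets, 1091.8 to 1127.8 and 318.8 to 377.0, with a mean of 0.14 ± 0.14 (SD, 2 probe sets). Unc5d, a receptor of neurons on their way to the upper layers, read 1225.2 and 1202.6 (-0.03). The UNC5 receptors thus did not share a direction, and the difference of Unc5b has no other measured probe set beside it.

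The other genes of these pathways were described from lists. Of 24 Eph-ephrin partners 23 were measured, 17 higher and 6 lower. Of all 11636 measured genes 6158 were higher and 5478 lower. The median of these partners was 0.07, but only 0.020 over the means of each gene's probe sets. Past 1.2-fold were 2 of them, 1 in each direction (8.70%, against 14.0% of all genes). The higher one was Pdzrn3, a PDZ-domain ubiquitin ligase, at 1204.4 and 1552.1 (0.36). Cbl, a ubiquitin ligase for receptor tyrosine kinases, differed by 0.24, the kinase Src by -0.24 and Arhgef15, the exchange factor ephexin-5, by 0.21. Both Src probe sets were lower, with a mean of -0.31 ± 0.10 (SD, 2 probe sets).

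All 19 Slit-Robo partners were measured, 13 higher and 6 lower, with a median of 0.03 (0.023 over probe-set means). Nell2, a ligand of Robo3, read 3347.3 and 2826.1 (-0.25) and was lower on both probe sets, averaging -0.59 ± 0.48 (SD, 2 probe sets). The heparan sulfate carriers Gpc1 and Sdc3 differed by 0.22 and -0.19, and the Robo-binding GTPase-activating proteins Srgap2 and Srgap3 by 0.19 and 0.16. Sdc3 averaged -0.23 ± 0.26 and Srgap2 0.15 ± 0.16 (SD, 3 probe sets each), both with probe sets in both directions. Only Sdc1 was past 1.2-fold (5.26% of the list, against 14.0% of all genes), from 217.1 to 161.1, under the floor in the double knockout pool, and it was named after its values were seen.

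Of 27 netrin partners 22 were measured, 11 higher and 11 lower, with a median of 0.0004, and 5 were past 1.2-fold (22.7%, against 14.0% of all genes). Dock1, an exchange factor for Rac, read 567.7 and 382.6 (-0.57), and Bcam, a laminin receptor, 296.2 and 226.7 (-0.39). On the higher side, Draxin, a secreted ligand of Dcc, read 257.2 and 362.1 (0.49), Trim67, a ubiquitin ligase that binds Dcc, 555.4 and 741.2 (0.41), and Trio, an exchange factor acting downstream of Dcc, 1730.0 and 2313.8 (0.42). Each rested on 1 probe set above the floor except Trio, whose mean was 0.15 ± 0.24 (SD, 3 probe sets). Of 15 other guidance cues and receptors, semaphorins and plexins among them, 10 were higher and 5 lower. Their median was 0.08 (0.056 over probe-set means), and 2 were past 1.2-fold (13.3%, against 14.0% of all genes). These were the receptors Plxna4 at -0.35, with a mean of -0.18 ± 0.23 (SD, 2 probe sets), and Nrp2 at 0.28, averaging 0.10 ± 0.16 (SD, 3 probe sets). The semaphorin Sema3f differed by 0.25, and the adhesion molecules Chl1 and Ncam1 by 0.15 each. Chl1 averaged -0.06 ± 0.60 (SD, 3 probe sets) and so has no settled direction.

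**Figure D4:**
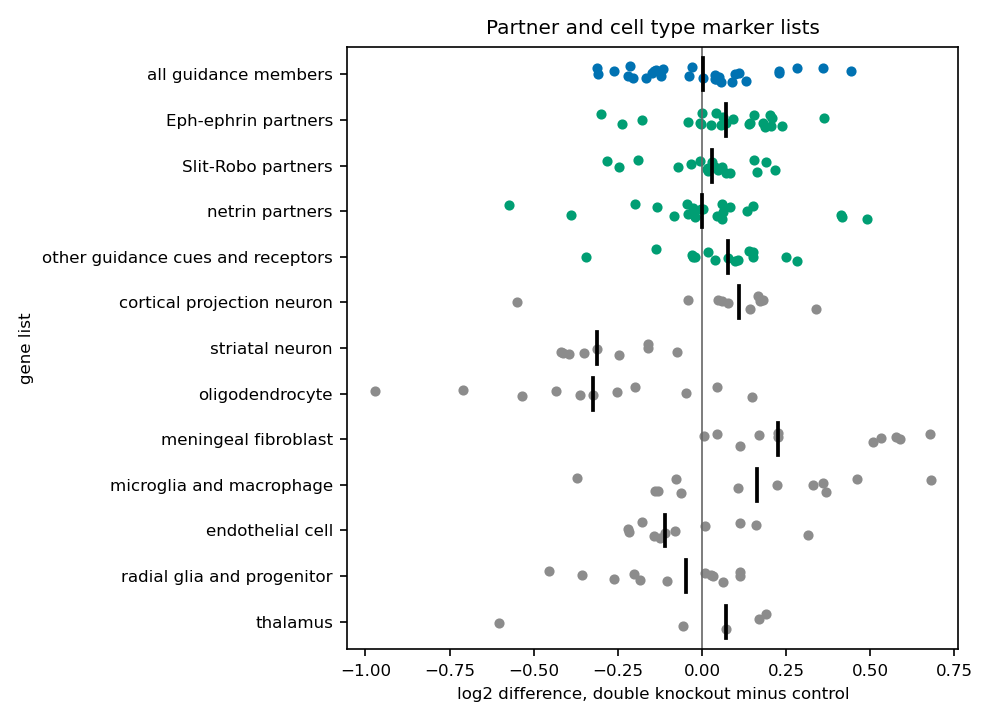
Log2 difference (double knockout minus control) of each measured gene of the guidance set (blue), the partner lists (green) and the cell type marker lists (grey), with the median of each list as a black bar. The guidance and partner medians lie between 0.0004 and 0.08, while the striatal and oligodendrocyte medians lie at -0.31 and -0.32 and the meningeal median at 0.23.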

How the data were processed

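Cortex RNA, pooled from 3 animals per group, was read on 2 arrays. Per the submitters' processing notes the authors computed the deposited intensity values with MAS5; the sources used here give no version, target or further step. The 2% trimmed mean is 500.0 on both arrays. Here, in Python 3.11.15 (numpy 2.4.6, pandas 2.3.3, statsmodels 0.14.6, matplotlib 3.10.9), double knockout signals were shifted by 0.0037 log2 so that the median difference of bright probe sets was 0, and floored at 178.6, the 50th percentile of non-control signals. A gene took its measured probe set of highest mean log2 signal. Probe sets were named from the platform annotation; those with several genes or none were left out. All 35 members with a probe set matched RefSeq by Entrez identifier. All measured members were named, and of each partner list the 5 largest differences read on both arrays. The value of 1 Eph-ephrin partner that this rule takes is not reported here. Of the marker lists only some genes allowed by the rule are printed, and Neurod6 and Tbr1 were chosen as defining markers. Cux1, Olig1, Olig2 and Pdgfra were named after their values were seen. The steps were tested on simulated data, with planted changes larger than those of the members here, in genes with a signal well above the floor. That does not test calls at 1.2-fold or values near the floor. Members and lists were chosen with earlier results of these data known.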

Additional observations from a re-analysis of the deposited data

How the results depend on the processing

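No paired analysis was possible because each group has 1 array. A gene value was taken to move when it shifted by more than the pooled SD between probe sets, and a median when it shifted by more than that SD over the square root of its number of genes. Of 220 values of single members under the alternatives, 214 stayed within it and 6 moved. Several alternatives could barely shift a member. Leaving out the centring changed values by up to 0.0037 log2, and a mean cannot change a gene with 1 measured probe set. Epha8 moved with the floor at the 25th percentile. With the mean over measured probe sets Efna2, Epha3, Epha5, Slit1 and Dcc moved. Of the members past 1.2-fold 0 changed sign, though Efna2 fell to 0.0025 with that mean. Smaller differences did change sign with it, Dcc from 0.23 to -0.034, and also Slit2 and Epha7. The 3 higher members past 1.2-fold became 1 with the floor at the 75th percentile (17 members measured). They became 1 with the mean over measured probe sets and 0 at 1.5-fold. Of all genes 2.67% and 4.30% were past 1.2-fold higher under the first 2 of these settings, beside 5.61% in the main one. Past 1.5-fold in either direction were 1.14% of them. The 2 lower ones became 1 after quantile normalization, 1 after loess centring, 5 with the floor at the 25th percentile, 0 with it at the 75th percentile, 5 with a pseudocount of 50 and no floor, and 0 at 1.5-fold. The share of all genes past 1.2-fold lower was 6.79%, 7.18%, 15.1%, 4.07% and 14.1% under the first 5 of these settings. The median of all members was -0.030 after loess centring and -0.031 with the mean over probe sets. The ephrin-A ligand median was 0.066 and -0.15 with the floor at the 25th and 75th percentile, the Slit median 0.028 at the 75th, over 1 gene, and the median of Dcc and Neo1 0.013 with the mean over probe sets. Fewer or more genes measured go with the floor changes; otherwise the cause was not tested. Probe sets near the floor limit Robo2, Robo3, Epha8 and Efna4.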
